A study of Homo sapiens with 6 samples.

Results

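The genes described here are 55 homeobox and PAX genes that lie outside the HOX clusters. They were chosen by name, as transcription factors of embryonic development, and the rule uses no measured value, from the 56638 genes of the count table. G401 cells come from a malignant rhabdoid tumor and are deficient in SMARCB1, a core subunit of the SWI/SNF chromatin remodeling complex. MAK683 is a small molecule that binds EED, the subunit of Polycomb Repressive Complex 2 (PRC2) that reads H3K27me3, and blocks the methyltransferase allosterically. G401 cells were kept for 3 days with DMSO, the vehicle, or with 3 µM MAK683, and all 6 libraries are ChIP-seq libraries of these cells. For each treatment there was 1 library with an antibody to H3K27me3, 1 with an antibody to H3K4me3, and 1 of input, the sonicated chromatin without immunoprecipitation. No value therefore has a replicate error and no test between treatments could be made. The 95% intervals given are exact Clopper-Pearson intervals and cover counting error only. A lower count can come from fewer cells that carry a mark or from less of it in each cell, and these cannot be told apart in bulk chromatin.

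Homeobox genes encode transcription factors that bind AT-rich DNA through a homeodomain, and PAX factors bind DNA through a paired domain, in some of them together with a homeodomain. Most of these genes act in a restricted region or tissue of the embryo, where they set the identity of body segments, neurons, limbs, sense organs or glands. In cells that do not use them, their CpG-rich starts are the best known targets of PRC2, which trimethylates H3K27 and is associated with silencing, whereas H3K4me3 marks starts that are open to initiation. A start that carries both marks is called bivalent, and bivalent starts are typical of developmental genes.

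The RefSeq sequence before the gene start is printed for 6 members because their marks differed most in kind. In EN2, EMX2 and NKX6-1 H3K27me3 was at least 4 times input and H3K4me3 under 2 times input in DMSO, and H3K4me3 was higher in MAK683. In DLX2 and MSX1 H3K4me3 was high and H3K27me3 low. MSX2 is the paralog of MSX1 and carried both marks. Each sequence is the 250 bases upstream of the first start listed for the gene, on its own strand, 5′ to 3′, and capitals mark CpG dinucleotides. In GRCh38.p14 the EN2 sequence is chr7:155457879-155458128 (plus strand), EMX2 chr10:117542496-117542745 (plus), NKX6-1 chr4:84499293-84499542 (minus), DLX2 chr2:172102901-172103150 (minus), MSX1 chr4:4859415-4859664 (plus) and MSX2 chr5:174724332-174724581 (plus).
EN2: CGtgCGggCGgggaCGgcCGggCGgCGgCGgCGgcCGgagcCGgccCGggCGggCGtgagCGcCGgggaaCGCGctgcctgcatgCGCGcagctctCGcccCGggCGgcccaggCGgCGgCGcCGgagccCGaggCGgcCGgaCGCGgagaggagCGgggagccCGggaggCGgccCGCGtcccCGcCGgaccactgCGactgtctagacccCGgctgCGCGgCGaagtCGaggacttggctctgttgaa
EMX2: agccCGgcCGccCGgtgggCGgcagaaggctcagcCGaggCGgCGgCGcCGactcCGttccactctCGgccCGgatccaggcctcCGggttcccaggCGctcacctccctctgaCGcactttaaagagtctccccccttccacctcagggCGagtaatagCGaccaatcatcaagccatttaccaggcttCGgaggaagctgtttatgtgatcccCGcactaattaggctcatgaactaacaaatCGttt
NKX6-1: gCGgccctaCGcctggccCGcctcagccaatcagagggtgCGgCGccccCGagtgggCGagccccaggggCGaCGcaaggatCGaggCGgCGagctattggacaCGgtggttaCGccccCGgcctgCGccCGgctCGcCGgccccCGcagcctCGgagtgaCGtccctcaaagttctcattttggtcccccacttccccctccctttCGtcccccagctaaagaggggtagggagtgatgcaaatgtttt
DLX2: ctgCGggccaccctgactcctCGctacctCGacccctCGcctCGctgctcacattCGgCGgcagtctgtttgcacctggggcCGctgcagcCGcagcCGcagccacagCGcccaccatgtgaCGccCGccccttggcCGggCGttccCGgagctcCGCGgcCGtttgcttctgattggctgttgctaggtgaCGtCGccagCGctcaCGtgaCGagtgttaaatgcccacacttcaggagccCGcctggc
MSX1: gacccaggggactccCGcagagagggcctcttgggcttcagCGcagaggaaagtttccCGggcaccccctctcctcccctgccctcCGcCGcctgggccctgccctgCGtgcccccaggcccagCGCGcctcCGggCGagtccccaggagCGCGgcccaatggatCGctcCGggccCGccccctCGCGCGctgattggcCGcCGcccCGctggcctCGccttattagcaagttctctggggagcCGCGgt
MSX2: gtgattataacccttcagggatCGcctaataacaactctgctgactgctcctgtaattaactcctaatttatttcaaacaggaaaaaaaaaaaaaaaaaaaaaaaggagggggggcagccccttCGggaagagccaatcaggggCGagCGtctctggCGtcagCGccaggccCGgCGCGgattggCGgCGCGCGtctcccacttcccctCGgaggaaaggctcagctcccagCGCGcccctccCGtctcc

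These 6 sequences held 45, 20, 23, 25, 24 and 17 CpG dinucleotides, in the order printed. A RefSeq sequence was found for 39 of the 55 members. The median over those 39 was 23 CpG and the range 7 to 45, against a median of 17.0 over 15843 protein-coding genes, and 29 of the 39 lay above that median. The GC content had a median of 68.0% in the members and 62.4% in protein-coding genes. The 19 members with H3K27me3 at least 2 times input in DMSO and a sequence had a median of 20.0 CpG. The 17 under that level had a median of 26.0. CpG-rich starts were thus present in members of either kind. TAATTA, the core sequence of many homeodomain sites and its own reverse complement, was in 2 of the 39 member sequences, EMX2 and MSX2. That is 5.13% of them, against 3.14% of the 15843 protein-coding genes and 4.49% of all 27305 sequences of the same length. With only 2 member sequences, no difference from either share was read.

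All values are counts over a whole gene, and gene positions are in GRCh37 (hg19). The members span 2.89 to 212 kb with a median of 6.70 kb, 39 of them under 15 kb and 5 over 90 kb, on 14 chromosomes. Most are therefore short genes in which the start makes up much of the counted span, and in the long ones a mark at the start is diluted. The libraries held 13308099 to 21281877 counts. Counts of the median gene were shared unevenly between treatments: MAK683 held 42.4% of H3K27me3, 48.0% of H3K4me3 and 53.8% of input counts. A change is therefore given relative to all genes: it is log2 of the ratio of counts plus 1, MAK683 over DMSO, minus the median of that ratio over all genes with at least 10 counts in either library, which was -0.44 for H3K27me3 and -0.11 for H3K4me3. A level is log2 of CPM (counts scaled to the library total) over input CPM, and at least 2 times input means a level of 1 or more. Each library is scaled to its own total, so a decrease common to all genes does not lower a level. SMARCB1 had 0 counts in both inputs. H3K4me3 was at least 2 times input at 5 of 6 housekeeping genes in DMSO, HPRT1 being below.

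Of the 55 members, 51 had counts and 4 were at 0 in every library: DLX6, IRX6, NKX2-1 and SIX6. The whole span of each of these 4 is overlapped by another annotated gene, so their 0 was not read as a lack of either mark. DLX6-AS1, the antisense gene over DLX6 and a feature picked after its values were seen, had H3K27me3 counts of 2733 in DMSO and 1456 in MAK683 and H3K4me3 counts of 510 and 741. Of the 55 members, 35 have at least 90% of their span to themselves, and among those with counts IRX1 and NKX2-2 have under 50%. In 13 members an input count was under 50, so their levels over input are loose.

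The members fell into 4 kinds of chromatin in DMSO. H3K27me3 was at least 2 times input at 28 of 51 members, against 13.2% of 30999 genes, and at least 4 times input at 22, against 2.29%. H3K4me3 was at least 2 times input at 25 of 51, against 22.0% of genes, and at least 4 times at 19, against 11.3%. Both marks were at least 2 times input at 11, against 1.36%. Another 17 had only H3K27me3 at this level, against 3671 of the 30999 genes. H3K4me3 alone was at this level at 14, against 6399 genes, and neither mark at 9, against 20508 genes. The median level of H3K27me3 over the members was 1.43 against -0.64 over all genes, and that of H3K4me3 was 0.89 against -0.31. Just under the threshold for H3K27me3 lay MEIS1 at 0.99 and PAX6 at 0.88, and just above it NKX2-5 at 1.04 and LHX4 at 1.08. For H3K4me3, EN2 and IRX4 at 0.89 lay just below, and PAX6 at 1.51 and NKX2-2 at 1.57 were the lowest above.

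**Figure D1:**
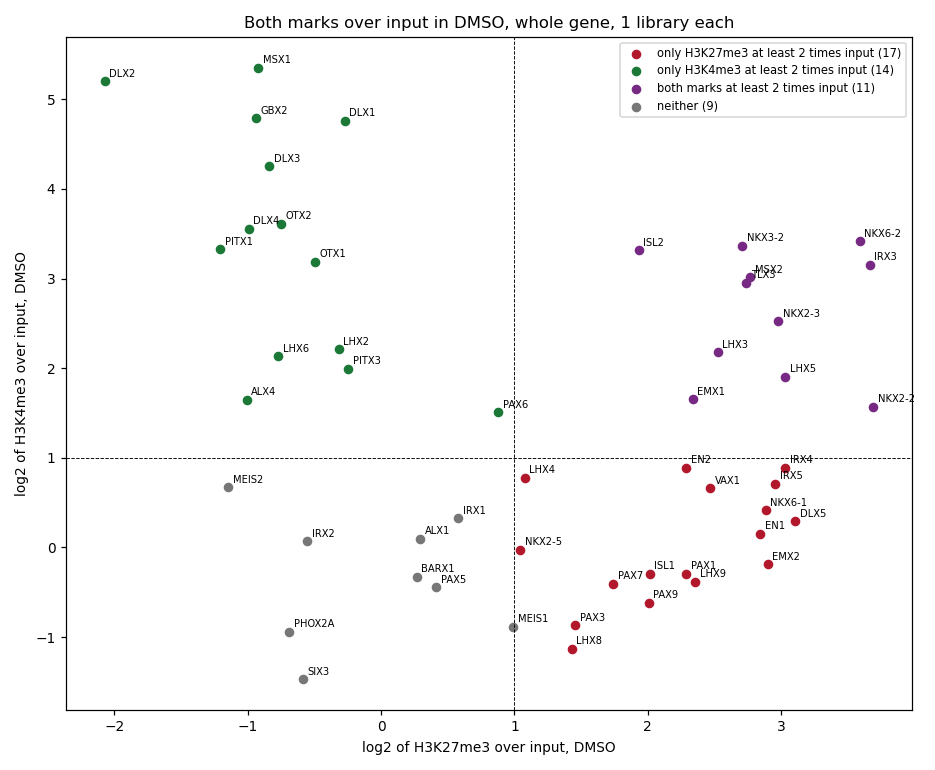
Level of H3K27me3 (x axis) and of H3K4me3 (y axis) in DMSO, each as log2 of CPM over input CPM, 1 point per member with counts (51), coloured by which mark was at least 2 times input. DLX1, DLX2, DLX3, DLX4 and MSX1 sit high on the H3K4me3 axis with H3K27me3 below input, whereas EN2, EMX2, NKX6-1 and DLX5 sit to the right with H3K4me3 under 2 times input.

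The families differed in kind. Of the 9 LIM homeodomain genes, which specify motor neurons, interneurons and pituitary cells, 7 had H3K27me3 at least 2 times input, 3 of them together with H3K4me3. All 6 counted NKX genes, which pattern the ventral neural tube, heart and gut, had H3K27me3 at this level, 4 of them with both marks. Of the 6 PAX genes 4 had H3K27me3 only. The 5 counted DLX genes, known for face, limb and forebrain interneuron development, split into 4 with H3K4me3 only and 1, DLX5, with H3K27me3 only. The 5 paired-like genes had none with H3K27me3 at this level, and 3 of them, ALX4, PITX1 and PITX3, had H3K4me3.

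The highest H3K27me3 levels in DMSO were at NKX2-2 (3.69), a factor of the ventral neural tube and pancreas, IRX3 (3.66), NKX6-2 (3.59), DLX5 (3.10) and IRX4 (3.03). Input counts were low at several of these: 17 in DMSO and 27 in MAK683 at NKX2-2, 34 in DMSO and 91 in MAK683 at IRX3, and 8 in DMSO and 18 in MAK683 at NKX6-2. The levels of these 3 are the least certain of the 5. The lowest levels among members with enough counts were at PITX1 (-1.21), which specifies the hindlimb, MEIS2 (-1.15), ALX4 (-1.01), DLX4 (-0.99) and DLX3 (-0.84). The highest H3K4me3 levels were at MSX1 (5.35), DLX2 (5.20), GBX2 (4.79) and DLX1 (4.76).

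H3K27me3 counts were lower in MAK683 than in DMSO at 45 of the 51 members, higher at 5 and equal at 1. This was also so for most genes, and the H3K27me3 library of MAK683 was the smaller, with 13308099 counts against 19162778 in DMSO. Counts were lower at 3970 of 4034 genes with H3K27me3 at least 2 times input in DMSO. Under that level they were lower at 20608 of 24665 genes. Relative to all genes, the ratio was below the median at 40 of 51, against 50.0% of genes by construction, and the median change was -0.34. The share of counts held by MAK683 lay wholly below that of the median gene at 29 of 51 members, against 18.7% of 29931 genes, and wholly above it at 4, against 15.9%. An interval narrows as counts rise, and here and below the members were not matched to the other genes on count. At least 2-fold lower relative to all genes was 1 member, NKX6-2, against 3.55% of genes. A decrease common to all genes is removed by this centring and no spike-in scaling was applied, so the size of the loss itself is not given by these values. With the counts as deposited, 11 members were at least 2-fold lower, against 9.93%, and 0 higher, against 1.42%. The level was at least 2 times input in MAK683 at 27 members, against 9.21% of genes, and at least 4 times at 16, against 1.16%. Of the 28 members at 2 times input or more in DMSO 26 were also at that level in MAK683, against 53.7% of 4092 genes. The median level in DMSO was 2.62 in these 28 members and 1.41 in the 4092 genes. The comparison is thus not matched on the starting level. Of the 28, LHX4 and NKX2-5 were not at that level in MAK683. The other of the 27 is IRX1, with input counts of 15 in DMSO and 9 in MAK683 and H3K27me3 counts of 26 in DMSO and 34 in MAK683.

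Every member with H3K27me3 at least 2 times input in DMSO had fewer H3K27me3 counts in MAK683, the smaller library. So had 98.4% of 4034 genes at this level. All 28 lay below the median of all genes, against 90.5% of genes at this level, so both counts are near the background. MAK683 held between 25% and 40.3% of their counts. The interval lay wholly below the share of the median gene at 25 of the 28, against 58.3% of 4034 genes at this level, and included it at the other 3, ISL2, NKX2-2 and PAX1. These shares were not matched on count, which sets the width of an interval. The median change was -0.43 in these members and -0.33 in all genes at this level. The same DMSO library sets the level and enters the change. With the level taken over both treatments together the medians were -0.40 in 27 members and -0.31 in 3380 genes.

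The lowest H3K27me3 changes among members with a mean of at least 50 counts were at NKX6-2, PITX3, EMX1, EMX2 and DLX5. NKX6-2, a factor of oligodendrocytes and motor neuron progenitors, had counts of 120 in DMSO and 40 in MAK683, a share of 25% (interval 18.5 to 32.4%) in MAK683 and a change of -1.12. With its input ratio subtracted, on input counts of 8 in DMSO and 18 in MAK683, that change was -1.99. EMX1 (chr2:73143389-73163200), which acts in the developing cerebral cortex, had counts of 1555 in DMSO and 700 in MAK683, a share of 31% (interval 29.1 to 33%) and a change of -0.71. EMX2, its paralog in cortex and urogenital tract, had counts of 473 in DMSO and 222 in MAK683 and a change of -0.65. These genes were high in DMSO and were also at least 2 times input in MAK683, with levels of 1.65, 1.91 and 2.52. PITX3, a factor of midbrain dopamine neurons, had counts of 164 in DMSO and 73 in MAK683 and a change of -0.72, at a level of -0.25 in DMSO, which is below input.

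The highest H3K27me3 changes by the same limit were at IRX2, ALX4, MEIS2, DLX3 and ALX1. IRX2 counts were 47 in DMSO and 66 in MAK683, with a share of 58.4% (interval 48.8 to 67.6%) and a change of 0.92. At MEIS2, a cofactor of HOX proteins, counts were 1323 in DMSO and 1091 in MAK683 and the change was 0.16. None of these 5 had H3K27me3 at 2 times input in DMSO. DLX2 and GBX2 were at least 2-fold higher relative to all genes, against 3.32% of genes, on counts of 12 in DMSO and 19 in MAK683 and of 12 in DMSO and 20 in MAK683, which are few reads.

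**Figure D2:**
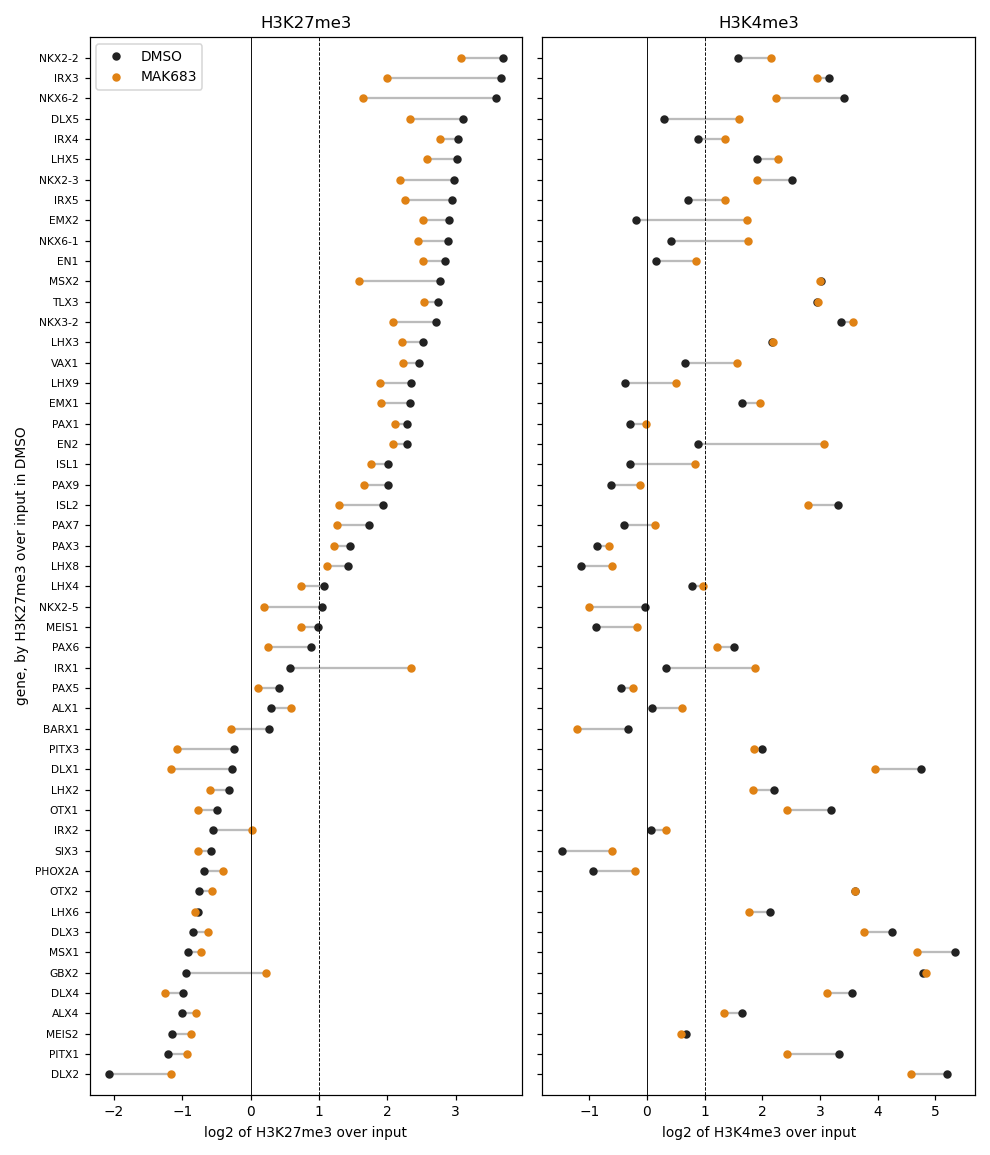
Level of each of the 51 counted members over input, as log2 of CPM over input CPM, in DMSO and in MAK683, for H3K27me3 (left) and for H3K4me3 (right), members ordered by H3K27me3 in DMSO; grey lines join the values of 1 member and the dashed line is 2 times input. H3K27me3 over input was lower in MAK683 at 39 members and higher at 12, against 13472 of 30999 genes lower. H3K4me3 over input was lower at 21 and higher at 30, near the background of 15991 of 30999 genes higher.

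H3K4me3 moved in both directions. Counts were higher in MAK683 at 28 members and lower at 23. They were lower at 1397 of 3711 genes with H3K27me3 at least 2 times input in DMSO. Under that level they were lower at 16561 of 25215 genes. Relative to all genes 7 of 51 members were at least 2-fold higher, DLX5, EMX2, EN2, ISL1, LHX9, NKX2-2 and NKX6-1, against 4.19% of 30028 genes. None was at least 2-fold lower, against 1.84%. With the counts as deposited 5 of the 7 were at least 2-fold higher, against 3.52% of genes, LHX9 and NKX2-2 falling short, and 0 were at least 2-fold lower, against 2.5%. H3K4me3 was at least 2 times input in MAK683 at 33 members, against 20.8% of genes, and at least 4 times at 19, against 9.8%. With median-of-ratios factors 4 members were at least 2-fold higher, ISL1, LHX9 and NKX2-2 falling short. The interval of the share lay wholly above that of the median gene at 26 members, against 19.3% of genes, and wholly below at 13, against 21.8%. Members and genes were not matched on count here either. The median change over the members was 0.33, and 0.15 with median-of-ratios factors.

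The 7 all had H3K27me3 at least 4 times input in DMSO. Among the 28 members with H3K27me3 at least 2 times input 7 were at least 2-fold higher in H3K4me3, against 9.57% of 3711 genes at this level. Among the 23 under it 0 were, against 2.81% of 25215 genes. Within the 22 members at 4 times input or more the 7 are 31.8%, against 24.0% of 622 genes at that level, a smaller gap than at 2 times input. The median H3K27me3 level was 2.81 in these members and 2.41 in the 709 genes of that class. Under 4 times input it was 0 of 29 members, against 3.23% of genes. The median H3K4me3 change was 0.59 in the 28 members, 24 of them above 0, and 0.21 in all genes at this level. The interval lay wholly above the share of the median gene at 21 of the 28, against 36.6% of genes, a comparison not matched on count. The H3K27me3 level and the H3K4me3 change come from different libraries, since the change uses no input.

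EN2 (chr7:155250824-155257526), which patterns midbrain and hindbrain, had the largest H3K4me3 change of the members. H3K4me3 there had counts of 223 in DMSO and 797 in MAK683, a share of 78.1% (interval 75.5 to 80.6%) and a change of 1.95. Input was 95 in DMSO and 93 in MAK683, so it did not move with the mark, and the H3K4me3 level went from 0.89 to 3.08. H3K27me3 counts were 532 in DMSO and 270 in MAK683, a level of 2.29 and 2.08. By the cut at 2 times input EN2 went from H3K27me3 alone to both marks, its H3K4me3 in DMSO lying just under that cut. The levels are scaled to each library's total, so they do not show how much H3K27me3 was kept. EN1, the paralog of EN2 on another chromosome, had H3K4me3 counts of 100 in DMSO and 153 in MAK683 and a change of 0.72.

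EMX2 (chr10:119301956-119309057) had H3K4me3 counts of 61 in DMSO and 189 in MAK683, a share of 75.6% (interval 69.8 to 80.8%) and a change of 1.73, with input nearly even at 55 in DMSO and 56 in MAK683. The H3K4me3 level went from -0.19, below input, to 1.73. DLX5 (chr7:96649708-96654262), which acts in bone and face, had counts of 76 in DMSO and 209 in MAK683, a share of 73.3% (interval 67.8 to 78.4%) and a change of 1.56. In both genes H3K4me3 started from few counts. The H3K27me3 level, scaled to each library's total, was at least 4 times input in either treatment. NKX6-1 (chr4:85413138-85420445), which marks pancreatic beta cells and motor neuron progenitors, had counts of 137 in DMSO and 348 in MAK683, a share of 71.8% (interval 67.5 to 75.7%) and a change of 1.45. ISL1 (chr5:50679282-50690564), a factor of motor neurons and heart progenitors, had counts of 139 in DMSO and 287 in MAK683, a share of 67.4% (interval 62.7 to 71.8%) and a change of 1.15. The ISL1 level in MAK683 was 0.84, so the gene remained under 2 times input in H3K4me3.

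LHX9 (chr1:197881032-197904608), which acts in the gonad and forebrain, had H3K4me3 counts of 259 in DMSO and 494 in MAK683 and a change of 1.04. NKX2-2 (chr20:21491655-21494702) had counts of 66 in DMSO and 124 in MAK683 and a change of 1.01, on a span shared in large part with other genes. Just under 2-fold was IRX3 with counts of 391 in DMSO and 718 in MAK683 and a change of 0.99. At these 3, as at ISL1, the counting interval reached to both sides of the share that a 2-fold rise gives, 64.9%. At IRX3 the input share was 72.8% (interval 64.1 to 80.4%) against 53.8% at the median gene, so over input its H3K4me3 level was 3.15 in DMSO and 2.96 in MAK683. The part of the input in the IRX3 change was not tested.

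**Figure D3:**
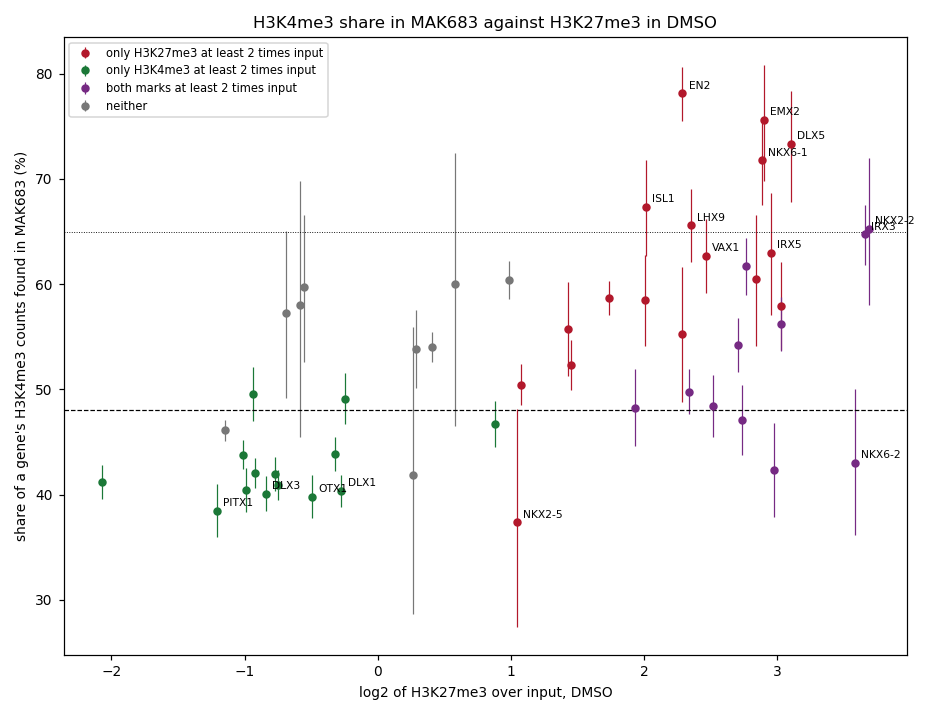
Share of each member's H3K4me3 counts held by MAK683 (y axis, percent, bars are 95% counting intervals) against its level of H3K27me3 in DMSO (x axis, log2 of CPM over input CPM), 1 point for each of 51 members, coloured by kind of chromatin in DMSO; the dashed line is the median gene (48.0%) and the dotted line the share that a 2-fold rise relative to all genes gives (64.9%). EN2, EMX2, DLX5 and NKX6-1, at the right, lie above the dotted line with their whole intervals, and the members with only H3K4me3 at least 2 times input lie below the dashed line apart from GBX2 and PITX3.

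The 14 members that carried only H3K4me3 at 2 times input or more all had fewer H3K4me3 counts in MAK683, as did 95.9% of genes of this kind. Relative to all genes 12 of the 14 were below 0, against 89.9% of genes of this kind, with a median change of -0.38 against -0.21 in all genes of this kind. The interval of the share was wholly below that of the median gene at 11 of the 14, against 62.5% of 6385 genes of this kind. This comparison too was not matched on count. With the levels taken over both treatments the median was -0.38 in 14 members and -0.20 in 6146 genes. All 6 housekeeping genes were also below 0. Their changes were -0.42 at EEF1A1, -0.35 at RPLP0, -0.29 at ACTB, -0.22 at GAPDH, -0.19 at TBP and -0.12 at HPRT1. The decrease was thus shared in direction with genes that carry much H3K4me3 in general, and its cause was not tested.

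The lowest changes among members with a mean of at least 50 counts were at PITX1, OTX1, DLX3, DLX1 and DLX4. PITX1 (chr5:134363424-134370503) had H3K4me3 counts of 897 in DMSO and 560 in MAK683, a share of 38.4% (interval 35.9 to 41%) and a change of -0.57. OTX1 (chr2:63277192-63284971), a forebrain factor, had counts of 1311 in DMSO and 867 in MAK683, a share of 39.8% (interval 37.7 to 41.9%) and a change of -0.48. DLX3 (chr17:48067369-48072588), known for skin, hair and tooth development, had counts of 2114 in DMSO and 1414 in MAK683 and a change of -0.47. All of these stayed at least 4 times input in H3K4me3 in MAK683, PITX1 at 2.44, OTX1 at 2.42 and DLX3 at 3.77. H3K27me3 at these genes was below input in DMSO.

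**Figure D4:**
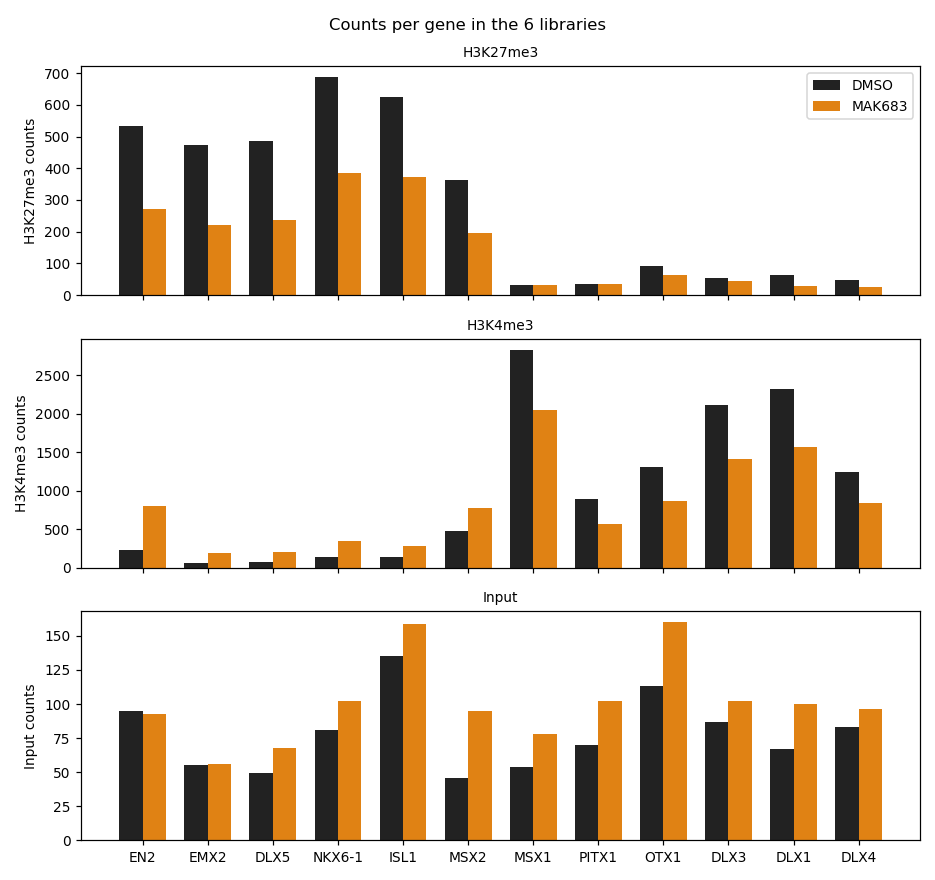
Deposited counts in DMSO and MAK683 for 12 members, in panels for H3K27me3, H3K4me3 and input (y axis, counts, each panel from 0), 1 bar per library. EN2, EMX2, DLX5, NKX6-1, ISL1 and MSX2 have more H3K4me3 and less H3K27me3 in MAK683, whereas MSX1, PITX1, OTX1, DLX3, DLX1 and DLX4 have less H3K4me3 and H3K27me3 counts under 100 in both treatments.

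The DLX and the MSX genes each included members with different marks. DLX1 (chr2:172949468-172954405) and DLX2 (chr2:172964166-172967628) are neighbours, as are DLX3 and DLX4 (chr17:48045952-48052323), so these are 2 loci and not 4 separate cases. H3K4me3 had counts of 2324 in DMSO and 1571 in MAK683 at DLX1, with a change of -0.45. At DLX2 they were 2223 in DMSO and 1556 in MAK683, with a change of -0.40. At DLX4 they were 1244 in DMSO and 844 in MAK683, with a change of -0.45. DLX5, the single counted gene of the DLX5 and DLX6 locus, had an H3K27me3 count of 487 in DMSO, where the other DLX genes had 12 to 63, and the opposite sign of H3K4me3 change.

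MSX1 (chr4:4861392-4865663) and MSX2 (chr5:174151585-174157899) both act in teeth, skull and limb buds. MSX1 had H3K27me3 counts of 32 in DMSO and 32 in MAK683 and H3K4me3 counts of 2828 in DMSO and 2050 in MAK683, with an H3K4me3 change of -0.35. MSX2 had H3K27me3 counts of 362 in DMSO and 196 in MAK683 and H3K4me3 counts of 477 in DMSO and 768 in MAK683, with an H3K4me3 change of 0.80. The intervals of the H3K4me3 shares, 42% (interval 40.6 to 43.4%) and 61.7% (interval 58.9 to 64.4%), did not overlap. At MSX2 the input counts were 46 in DMSO and 95 in MAK683, a share of 67.4% (interval 59 to 75%), and over input its H3K4me3 level was 3.01 in DMSO and 2.99 in MAK683. The part of the input in the MSX2 change was not tested.

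In the forebrain genes OTX2, required for head formation, had H3K4me3 counts of 2718 in DMSO and 1878 in MAK683 and a change of -0.42. VAX1, which acts in the optic stalk, had counts of 282 in DMSO and 474 in MAK683 and a change of 0.86, and H3K27me3 counts of 891 in DMSO and 512 in MAK683. EMX1 carried both marks and its H3K4me3 counts hardly moved, 1074 in DMSO and 1064 in MAK683. EMX1 and EMX2 thus had similar H3K27me3 changes and H3K4me3 changes of 0.10 and 1.73. GBX2, which sets the front border of the hindbrain opposite OTX2, had H3K4me3 counts of 761 in DMSO and 748 in MAK683 and a change of 0.09. TLX3, a selector of excitatory spinal neurons, carried both marks and had counts of 477 in DMSO and 424 in MAK683.

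The Iroquois genes, which pattern neural tube and heart, had H3K4me3 changes above 0 at all 5 counted members, from 0.57 to 0.99. By construction 50.0% of genes lie below 0. IRX1, IRX2 and IRX4 are neighbours on chromosome 5 and IRX3 and IRX5 on chromosome 16, so these are 2 loci and not 5 separate cases. Over input H3K4me3 was higher in MAK683 at 4 of the 5, and IRX3 had -0.20. IRX4, a ventricular heart factor, had H3K27me3 counts of 918 in DMSO and 571 in MAK683 and H3K4me3 counts of 230 in DMSO and 317 in MAK683. IRX5, which lies near IRX3, had H3K27me3 counts of 448 in DMSO and 225 in MAK683 and H3K4me3 counts of 104 in DMSO and 177 in MAK683. IRX1 and IRX2 had no H3K27me3 at 2 times input, and IRX1 had under 40 counts in every library.

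Among the LIM homeodomain genes the pattern followed the same lines. LHX8, of cholinergic forebrain neurons, had H3K27me3 counts of 1169 in DMSO and 621 in MAK683, H3K4me3 counts of 219 in DMSO and 276 in MAK683 and an H3K4me3 change of 0.45. LHX5, which carried both marks, had H3K4me3 counts of 642 in DMSO and 824 in MAK683 and a change of 0.47. The others with both marks had H3K4me3 changes near 0, of 0.02 at LHX3, a pituitary factor, and 0.01 at ISL2. LHX2 and LHX6, with H3K4me3 alone, had H3K4me3 changes of -0.24 and -0.35. LHX4 lay between, with counts of 1245 in DMSO and 1267 in MAK683.

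The 11 members with both marks had a median H3K4me3 change of 0.10, near the 0.15 of 398 genes with both marks and enough counts. Their median H3K27me3 change was -0.44, as in 393 genes of this kind with enough counts. Most NKX genes belong here. NKX3-2, which acts in the axial skeleton, had H3K27me3 counts of 392 in DMSO and 195 in MAK683 and H3K4me3 counts of 686 in DMSO and 813 in MAK683, a change of 0.36. NKX2-3, of spleen and gut, had H3K4me3 counts of 281 in DMSO and 206 in MAK683 and a change of -0.33, with an interval below the share of the median gene. NKX2-5, the heart factor, was the 1 member with H3K27me3 alone whose H3K4me3 change lay below 0, at -0.62 on counts of 57 in DMSO and 34 in MAK683. An H3K27me3 change below 0 was therefore not accompanied by more H3K4me3 at every member.

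PAX7 and PAX3, which act in neural crest and muscle progenitors, are long genes with H3K27me3 at least 2 times input. PAX7 counts of H3K27me3 were 5702 in DMSO and 2986 in MAK683, a share of 34.4% (interval 33.4 to 35.4%). H3K4me3 at PAX7 had counts of 1432 in DMSO and 2034 in MAK683, a share of 58.7% (interval 57 to 60.3%) and a change of 0.62. PAX3 had H3K4me3 counts of 808 in DMSO and 886 in MAK683 and a change of 0.25. PAX9, of tooth and thymus, had H3K4me3 counts of 213 in DMSO and 300 in MAK683 and a change of 0.61. PAX6, the eye selector, was the PAX gene with H3K4me3 at least 2 times input, and its counts were 1078 in DMSO and 945 in MAK683, a change of -0.08. PAX5, the B cell factor, is one of the long genes and had neither mark at 2 times input over its whole span.

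Of the remaining members MEIS1 had H3K27me3 just under 2 times input, with counts of 3646 in DMSO and 2126 in MAK683, and H3K4me3 counts of 1104 in DMSO and 1684 in MAK683, a share of 60.4% (interval 58.6 to 62.2%). MEIS2 had H3K4me3 counts of 5194 in DMSO and 4445 in MAK683 and a change of -0.11, so the 2 paralogs differed in sign. ALX1 and ALX4, which shape the face, had H3K4me3 changes of 0.33 and -0.25. PHOX2A, of noradrenergic neurons, BARX1, of stomach and teeth, and SIX3, of eye and forebrain, had under 100 counts of either mark in each library.

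Other lists of homeobox genes give the surroundings. Of 51 further developmental homeobox and PAX genes, 49 had enough input, and 26 of these had H3K27me3 and 23 H3K4me3 at least 2 times input, 12 of them both. Their median H3K27me3 level was 1.32, near the 1.43 of the members. Of these genes 6 were at least 2-fold higher in H3K4me3, against 4.19% of 30028 genes. The highest were HMX1, of eye and ear, with H3K4me3 counts of 531 in DMSO and 1410 in MAK683 and a change of 1.52, GSC (125 in DMSO and 291 in MAK683) and NKX2-8 (158 in DMSO and 356 in MAK683). The lowest were MEOX1, of the somites, with counts of 1711 in DMSO and 1084 in MAK683 and a change of -0.55, LBX1 (-0.42) and UNCX (-0.39). Of 24 widely expressed homeodomain genes, 21 had enough input, and 1, ZEB2, had H3K27me3 and 5 had H3K4me3 at least 2 times input. None of the 21 was at least 2-fold higher in H3K4me3, which is near the background of 4.19% of 30028 genes. The highest changes included ZEB2 (0.49) and CUX2 (0.41). The lowest were at POU6F1 (-0.35), CERS5 (-0.23) and HOMEZ (-0.21).

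The sign of small changes depends on the scaling between libraries. With median-of-ratios factors the median of all genes lay at -0.18 for H3K4me3 and -0.12 for H3K27me3, and 6 members changed sign in H3K4me3, EMX1, GBX2, ISL2, LHX3, LHX4 and PITX3. The members above 0 in H3K4me3 then numbered 27 of 51 in place of 33. In H3K27me3, ALX1 and PHOX2A changed sign. With the counts as deposited, ALX1, ALX4, DLX3, MEIS2 and PHOX2A changed sign in H3K27me3, where members above 0 numbered 5 in place of 11, and EMX1, GBX2, ISL2, LHX3 and PITX3 in H3K4me3. With library totals OTX1 changed sign in H3K27me3. No member named above for a rise of at least 2-fold changed sign under any scaling tried.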

How the data were processed

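ChIP-seq libraries of G401 cells (1 each for input, H3K27me3 and H3K4me3 in DMSO and in MAK683) were used as gene counts. Per the labels and methods, the authors trimmed reads with Trim Galore 0.4.4, aligned them to hg19 with Bowtie2, depleted repeated reads with Picard 2.23.6 and counted with featureCounts. The deposited counts are whole numbers per gene. The Drosophila spike-in described in the methods carries no factor in the table and was not applied, so no absolute level of a mark is given. The annotation used for counting and its strand setting are not given in the sources used here. Other assays of the study were not analysed here.

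Here, intervals, changes and levels were computed with Python 3.11.15, numpy 2.4.6, pandas 2.3.3 and scipy 1.17.1. Changes used a pseudocount of 1 and genes with at least 10 counts in either library. Levels used a pseudocount of 0.05 CPM and genes with at least 10 counts in either input. The depth was 13308099 to 21281877 counts, and 3 counts, the limit that a count of 0 allows, are 0.141 to 0.225 CPM. Called means at least 2-fold relative to the median of all genes. Gene positions came from GENCODE release 44 on GRCh37 and upstream sequences from RefSeq on GRCh38.p14. The code was tested on simulated data, in which all 200 genes changed 4-fold were recovered for each mark.

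Named genes were the 5 members with the highest and the 5 with the lowest value of each measure among those with a mean of at least 50 counts, and 3 at either end for the other lists, of which 1 is not reported here. Paralogs and others were named to describe their families. The rule for members uses names and no measured value, but the members and the lists were chosen with earlier results of these data known. Groups came from the labels. Alternatives were other scalings, pseudocounts, filters and thresholds.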

Additional observations from a re-analysis of the deposited data

How the results depend on the processing

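No paired analysis was possible because each treatment and antibody had 1 library and the labels give no replicate numbers. Of 105 alternative values of summary results 94 stayed close to the reported value and 11 moved. The median H3K27me3 change of the members was -0.34, and -0.78 with the counts as deposited, -0.25 with library totals and -0.46 with median-of-ratios factors. Members at least 2-fold lower in H3K27me3 were 1, and 11 with the counts as deposited and 3 with the input ratio subtracted. Members at least 2-fold higher in H3K27me3 were 2, and 0 with the counts as deposited, 1 with median-of-ratios factors, 0 with a pseudocount of 5 and 0 with a minimum of 50 counts. Members at least 2-fold higher in H3K4me3 were 7, and 4 with median-of-ratios factors. Members at least 2-fold lower in H3K4me3 were 0, and 1 with the input ratio subtracted. Of 200 alternative values of single genes 22 moved by more than their counting interval. The sign changed in 5, none of them at least 2-fold: with the counts as deposited the H3K27me3 change was -0.26 at ALX4, -0.28 at MEIS2, -0.28 at DLX3 and -0.41 at ALX1, and with median-of-ratios factors -0.09 at ALX1. Alternatives chosen after seeing the data, namely levels over both treatments and only members with at least 50 counts in both inputs, left 7 of 27 and 5 of 19 members with H3K27me3 at 2 times input at least 2-fold higher in H3K4me3, and 0 of 24 and 0 of 19 of the others. The cause of the differences between scalings was not tested. Without replicates, differences between libraries and differences between treatments cannot be told apart.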
